A study of Ovis aries with 40 samples.

Results

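Transcript levels of 4 genes of hormone signalling, LEPR, TSHR, HSD11B1 and AGT, were followed in the longissimus dorsi muscle of sheep from 70 d of gestation to 2 months after birth. The genes were read by 8 probes of the 15008 on a 1-colour sheep array: 4 probes for LEPR, 2 for HSD11B1 and 1 each for TSHR and AGT. They were selected on these arrays, LEPR, HSD11B1 and AGT by the difference between breeds at 70 d and TSHR by the difference at 100 d, so those differences are given below as descriptions without a test. The second HSD11B1 probe and the 3 other LEPR probes were added because they carry the same gene name. The AGT probe was designed on an expressed sequence tag and has no gene name in the scanner files, and its name was taken from the study's list of probes.

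The 40 arrays, 1 per animal, held muscle RNA of purebred Texel fetuses from 5 stages of gestation, namely 70 d, 85 d, 100 d, 120 d and 135 d (3 per stage, and 4 at 100 d), of purebred Ujumqin fetuses at the same 5 stages (3 per stage) and of Ujumqin lambs at birth, 1 month and 2 months (3 per age). The dams of the fetuses had been synchronised with an intravaginal CIDR device and an injection of PMSG and inseminated with semen of their own breed. How the dams of the lambs were bred is not described. The labels describe no treatment of the fetuses or lambs. Fetuses were collected by caesarean section from 3 ewes per breed and stage, so that some of the 4 Texel fetuses at 100 d may share a dam. There were no Texel lambs, and the breeds differ at many loci, so that a breed difference cannot be assigned to any 1 of them. Both sexes were present, but at 120 d all 3 Texel fetuses were male and all 3 Ujumqin fetuses female, so that breed and sex cannot be told apart at that stage. At 135 d all 3 Ujumqin fetuses were female and 2 of the 3 Texel fetuses male. The muscle identity of the samples rested on MYOG and MYF5, the only 2 of 12 muscle markers with a named probe, and both were well above background on every array. The median signal per array lay between 217.6 and 708.3, and 79.3% to 90.9% of spots were well above background. The arrays lay on 5 slides. The breeds lay on different slides at 70 d, and the lambs at birth shared a slide only with Texel fetuses of 70 and 85 d. Slide 5 held 2 Texel fetuses of 135 d and all Ujumqin animals of 135 d and 2 months. It shared a group with another slide only through the first Texel fetus of 135 d, on slide 4. A fit with slide as a fixed block therefore compares 135 d with earlier stages, birth or 1 month through that fetus alone.

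Levels are given as the log2 of the quantile-normalized signal of a probe, and differences are on the same log2 scale, so that 1 unit is a 2-fold difference. Levels of different probes are not comparable with each other. A probe was called changed at an adjusted p under 0.05 in limma, with Benjamini-Hochberg adjustment over all 14475 tested probes. All 8 probes were among those tested. The muscle was measured in bulk, and fewer cells of a type and less RNA per cell cannot be told apart.

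LEPR is the receptor of leptin, the hormone that adipose tissue releases in proportion to its fat. HSD11B1 is the enzyme that regenerates active cortisol from cortisone inside cells, and HSD11B2 runs the opposite reaction, so that the balance of both enzymes sets how much glucocorticoid reaches the glucocorticoid receptor of a tissue. TSHR is the receptor of thyrotropin, known best from the thyroid gland, and AGT is angiotensinogen, the precursor from which angiotensins are cut, known best from liver and adipose tissue. In fetal sheep cortisol and triiodothyronine rise in the blood shortly before term, and the sensitivity of muscle to both hormones matters in that period.

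The probe sequences are shown because what each probe can report depends on where it lies in the transcript. For LEPR the first 2 sequences overlap, with the shared bases in capitals: A_70_P056812 ends with the same 30 bases that begin A_70_P056811. In the TSHR sequence and in the first HSD11B1 sequence the capitals mark AATAAA or ATTAAA, the hexamers of polyadenylation signals, which in TSHR stand as overlapping copies at the end of the probe.
LEPR A_70_P056812: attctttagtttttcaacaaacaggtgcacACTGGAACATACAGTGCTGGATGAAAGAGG
LEPR A_70_P056811: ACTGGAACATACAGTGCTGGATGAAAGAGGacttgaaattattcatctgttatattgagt
LEPR A_70_P039556: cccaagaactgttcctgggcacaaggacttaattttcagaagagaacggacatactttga
LEPR A_70_P039557: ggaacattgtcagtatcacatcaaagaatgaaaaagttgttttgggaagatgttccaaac
TSHR A_70_P039326: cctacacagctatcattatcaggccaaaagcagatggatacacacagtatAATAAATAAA
HSD11B1 A_70_P051221: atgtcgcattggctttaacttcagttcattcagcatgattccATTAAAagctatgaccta
HSD11B1 A_70_P051222: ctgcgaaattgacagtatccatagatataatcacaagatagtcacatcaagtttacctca
AGT A_70_P038456: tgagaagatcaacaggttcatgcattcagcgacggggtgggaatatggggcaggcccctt
The overlapping LEPR probes are therefore not independent measurements of the transcript, whereas A_70_P039556 and A_70_P039557 shared no run longer than 7 bases with either of them and none longer than 6 with each other. A_70_P039556 reads without a stop codon in frame 1 up to its last codon, which is a stop at base 58. AATAAA occurs in 5.63% of all 15008 probes as given and in 3.70% on the reverse strand, and ATTAAA in 2.63% and 2.44%, so that a match describes the probe and is not evidence of a site.

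HSD11B1 showed the widest range of the 4 genes, with low levels at 70 d in both breeds and high levels from 120 d on. Probe A_70_P051221 read 6.87, 6.99 and 6.09 in the 3 Texel fetuses at 70 d. It read 8.72, 8.34 and 8.76 at 85 d, and in the 4 fetuses of 100 d 11.63, 11.23, 11.23 and 11.23. In Texel fetuses at 120 d it read 12.50, 13.28 and 12.99, and at 135 d 11.41, 13.64 and 13.50. The levels of successive Texel stages did not overlap up to 120 d, and at 135 d the first fetus was more than 2 units below both others. In Ujumqin fetuses the probe read 7.56, 7.996 and 7.49 at 70 d. It read 8.85, 8.55 and 8.80 at 85 d, in fetuses of 100 d 10.53, 11.72 and 11.03, then 12.62, 12.42 and 12.04 at 120 d and 12.95, 13.09 and 12.98 at 135 d, and here no 2 successive stages overlapped. In the lambs the levels were near those of 135 d, with 12.74, 12.93 and 12.32 at birth, 13.01, 13.32 and 13.02 at 1 month and 12.88, 13.01 and 12.23 at 2 months.

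From 70 to 135 d the mean HSD11B1 level was thus higher by 6.20 ± 0.37 (SE, n = 3 and 3) in Texel, a 73.5-fold difference, and by 5.32 ± 0.37 in Ujumqin, a 40.0-fold difference. No test is given for this course, since the 70 d arrays at its start belong to the contrast that chose the gene. The second probe, A_70_P051222, followed the first with a Pearson correlation of 0.996 over the 13 group means, which share all arrays. It read 3.54, 2.26 and 1.72 in Texel at 70 d and 9.50, 9.25 and 9.74 at 135 d, and 4.00, 3.99 and 3.63 in Ujumqin at 70 d and 9.13, 9.40 and 9.29 at 135 d. At 70 d it was well above background on 1 of 3 arrays in each breed, so that its differences of 6.99 and 5.40 start from a level near background. Several steps could be read between arrays of 1 slide. On slide 1 the first probe was 1.88 higher in Texel at 85 d than at 70 d, on slide 2 it was 1.05 higher in Ujumqin at 85 d than at 70 d, and on slide 2 the single Texel array of 100 d was 2.87 above that of 85 d. Between 100 and 120 d it was 1.26 higher in Texel on slide 3 and 0.99 higher in Ujumqin on slide 4. All of these steps ran the same way as the differences over all slides. On slide 4 the first probe was 1.73 lower in the single Texel array of 135 d than in those of 120 d, which was the low first fetus, and the second probe was not low in that fetus (9.50). Fitted with slide as a fixed block, the difference from 70 to 135 d was 4.19 in Texel and 2.82 in Ujumqin for the first probe, and 6.17 and 4.94 for the second. That fetus alone ties slide 5 to the other slides, so that these fitted values depend on its reading.

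**Figure D1:**
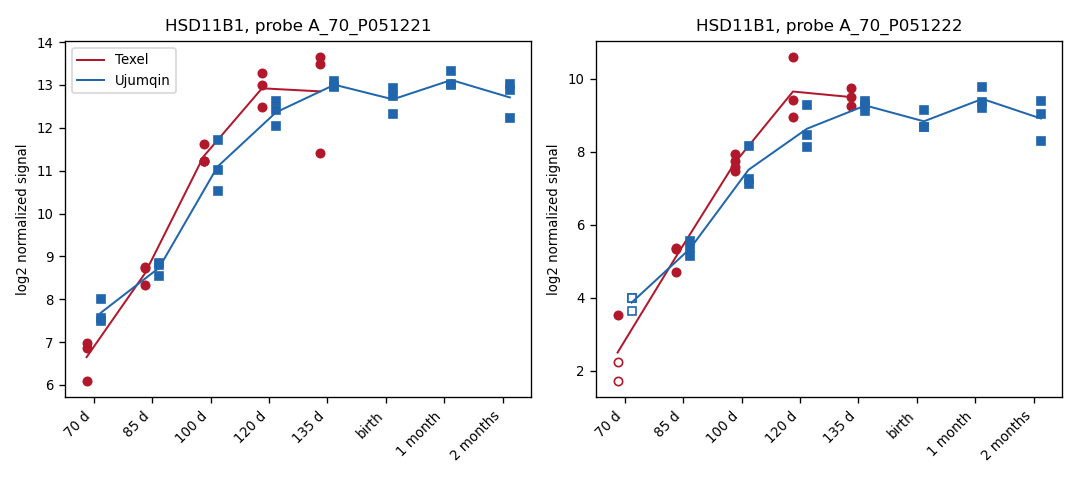
Log2 normalized signal of both HSD11B1 probes in every animal, by stage (d of gestation, or age after birth). Red circles are Texel, blue squares are Ujumqin, lines join the group means, and open symbols mark spots not well above background; Texel means of A_70_P051221 go from 6.65 at 70 d to 12.92 at 120 d, and Ujumqin means from 7.68 at 70 d to 13.005 at 135 d.

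In the order of the 13 group means of A_70_P051221, the 7 highest groups were Ujumqin at 1 month (13.12), Ujumqin at 135 d (13.005), Texel at 120 d (12.92), Texel at 135 d (12.85), Ujumqin at 2 months (12.71), Ujumqin at birth (12.66) and Ujumqin at 120 d (12.36). Each of these overlapped its neighbour in the order, so that neighbours were not resolved. Some groups further apart did not overlap with this probe. Ujumqin fetuses of 120 d (12.04 to 12.62) and newborns (12.32 to 12.93) lay below every Ujumqin animal of 135 d and 1 month. With the second probe, fetuses of 120 d (8.15 to 9.29) and newborns (8.69 to 9.14) both overlapped those of 135 d (9.13 to 9.40). These 3 groups lay on different slides, so that they were not resolved from each other. Below these 7 groups lay Texel (11.33) and Ujumqin (11.09) at 100 d, which overlapped each other. Then came Ujumqin (8.73) and Texel (8.61) at 85 d, which also overlapped. The last 2 were Ujumqin at 70 d (7.68) and Texel at 70 d (6.65), and neither overlapped a neighbour. After birth the level was close to that of 135 d: at 2 months it differed by -0.30 from 135 d, with all 6 arrays on slide 5. The difference from 135 d to birth was -0.34 without and 2.40 ± 0.68 with slide as a fixed block. With the second probe it was -0.43 without and 0.39 ± 1.08 with the block. The values with the block depend on the first Texel fetus of 135 d, which was low with the first probe only. The direction from 135 d to birth was therefore not settled.

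At 70 d, the contrast that chose it, HSD11B1 was 1.03 lower in Texel with the first probe (2.04-fold) and 1.37 lower with the second, and the 3 Texel and 3 Ujumqin levels did not overlap with either probe. The second probe was well above background on only 1 of 3 arrays of each breed there, so that its difference is not a measured size. With slide as a fixed block the differences were -0.80 and -1.01. At the 4 later stages the breeds could be tested. The differences, Texel minus Ujumqin, ranged from -0.22 to 1.02 over 8 comparisons, and none was called (limma adjusted p from 0.503 to 0.982). The widest was the second probe at 120 d, 1.02 ± 0.49 (2.03-fold), against 0.56 ± 0.27 with the first probe, at the stage where breed and sex cannot be told apart. Averaged over 85 to 135 d the first probe gave 0.13, with a 95% confidence interval from -0.24 to 0.50 (limma adjusted p = 0.745), and the second gave 0.30, from -0.08 to 0.68 (limma adjusted p = 0.387).

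Cell type markers moved over the same stages. Of 9 adipose markers 5 had a named probe, and their summed signal went from 11.1 to 12.6 in Texel and 11.3 to 11.8 in Ujumqin at 70 d to 12.91 to 13.002 and 12.87 to 13.22 at 135 d. Most of that sum was PPARG, at 11.02 in Texel and 10.85 in Ujumqin at 70 d and 12.15 and 12.37 at 135 d. LPL, which releases fatty acids from lipoproteins, was 8.85 in Texel and 8.53 in Ujumqin at 70 d and 11.36 and 11.26 at 135 d. FABP4, the fatty acid carrier of adipocytes, was 4.54 and 3.99 at 70 d and 7.25 and 8.25 at 135 d. LEP moved the other way, from 7.84 and 7.85 to 6.73 and 6.75. PLIN1 went from 8.09 to 8.75 in Texel and from 8.70 to 8.31 in Ujumqin. The summed signal of the 3 of 6 connective tissue markers with a probe (COL1A1, COL3A1 and DCN) was 17.6 to 18.0 and 17.4 to 17.9 at 70 d and 16.7 to 17.1 and 16.7 to 16.9 at 135 d. Nearly all of it was DCN, at 17.68 and 17.64 at 70 d and 16.97 and 16.76 at 135 d. COL1A1 and COL3A1 also had lower means at 135 d than at 70 d in both breeds. The part of these cells in the HSD11B1 levels was not tested.

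LEPR was lower in Texel than in Ujumqin at 70 d with all 4 probes, and no breed difference from 85 d on was called. Probe A_70_P056812 read 4.58, 4.83 and 5.16 in Texel and 5.76, 6.13 and 6.12 in Ujumqin at 70 d. Every Texel fetus lay below every Ujumqin fetus, by 1.15 in the mean (2.22-fold). At 85 d the probe read 6.58, 6.18 and 6.30 in Texel and 6.79, 6.67 and 6.12 in Ujumqin, and the breeds overlapped. At 100 d it read 6.67, 5.60, 5.98 and 6.32 in Texel and 6.55, 6.59 and 7.19 in Ujumqin. At 120 d it read 6.33, 5.62 and 6.88 in Texel and 6.28, 6.36 and 5.82 in Ujumqin, and at 135 d 5.72, 6.35 and 6.01 against 5.20, 6.53 and 5.61. The breeds overlapped at each of these stages. In the lambs it read 5.35, 5.12 and 4.92 at birth, 5.39, 5.41 and 4.80 at 1 month and 5.55, 6.23 and 4.87 at 2 months, below most fetal values from 85 d on. The order of the group means ran from Ujumqin at 100 d (6.78) down to Ujumqin at birth (5.13) and Texel at 70 d (4.86), and each group overlapped the next in the order.

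The other 3 LEPR probes gave the same direction at 70 d, the contrast that chose the gene. A_70_P056811, which overlaps the first probe, read 5.18 to 5.43 in Texel and 6.18 to 6.45 in Ujumqin, 1.04 lower in Texel. A_70_P039556 read 3.88 to 4.75 and 4.77 to 6.04, 1.11 lower. A_70_P039557 read 1.55 to 1.92 and 2.42 to 3.25, 1.13 lower, but was not well above background on any of the 6 arrays, so that no fold is given. In a fit with slide as a fixed block the 4 differences were -1.22, -1.23, -1.60 and -1.23, and within a slide they could not be read, since the breeds lay on different slides at this stage.

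At the stages that did not choose the gene, the 4 probes gave 16 breed comparisons and none was called. Of the 16, 3 had an unadjusted p under 0.05, all with lower levels in Texel. A_70_P056811 was 0.34 lower at 85 d (limma adjusted p = 0.371) and 0.87 lower at 100 d (limma adjusted p = 0.313), and the breeds did not overlap at either stage. The remaining comparison was A_70_P039557, 0.79 lower at 85 d without overlap (limma adjusted p = 0.249), but all 3 Texel spots and 1 of the 3 Ujumqin spots were not well above background there, so that this difference is not a measured one. At 135 d all 4 probes were higher in Texel, by 0.18 to 1.09, with overlapping breeds. The 1.09 belonged to A_70_P039557, which was well above background in 1 fetus of each breed. Averaged over 85 to 135 d the difference of A_70_P056812 was -0.11 ± 0.17 (SE), with a 95% confidence interval from -0.45 to 0.23 (limma adjusted p = 0.770). The other 3 probes gave -0.21, -0.16 and -0.08.

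Over the stages other than 70 d, 36 comparisons of successive stages were made for the 4 LEPR probes, and none was called (5 had an unadjusted p under 0.05, and the lowest adjusted p was 0.0753). That value belonged to A_70_P039556 in Texel, which read 5.34, 4.53 and 4.72 at 120 d and 5.91, 6.71 and 6.09 at 135 d, a difference of 1.37 in the mean without overlap. The probes did not move together there: A_70_P056812 differed by -0.25 and A_70_P056811 by -0.51. Over the 13 group means A_70_P056812 correlated with A_70_P056811 at 0.960, with A_70_P039557 at 0.840 and with A_70_P039556 at 0.576. A_70_P039556 also varied more among animals of 1 group, with 4.53, 6.94 and 5.37 in Ujumqin at 135 d and 5.51, 7.10 and 5.59 at 2 months. Over the longer span from 85 to 135 d in Ujumqin, singled out after its values were seen, A_70_P056811 read 7.14, 6.9999 and 6.78 at 85 d and 5.73, 6.76 and 5.90 at 135 d. The fall of 0.85 was called (limma adjusted p = 0.0189), beside 19.4% of all tested probes that fell over that span (36.9% were called in either direction). The call was lost without the first fetus of 85 d or without the first or the third fetus of 135 d (limma adjusted p = 0.0716, 0.114 and 0.0801). The difference was -0.05 with slide as a fixed block (limma adjusted p = 0.985), and both stages lay on different slides. The other 3 probes were not called over this span, with differences of -0.75, -0.11 and -1.01, and none of the 4 was called over the same span in Texel, where 37.1% of all probes were. Which transcripts of LEPR each probe reports cannot be read from these files.

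**Figure D2:**
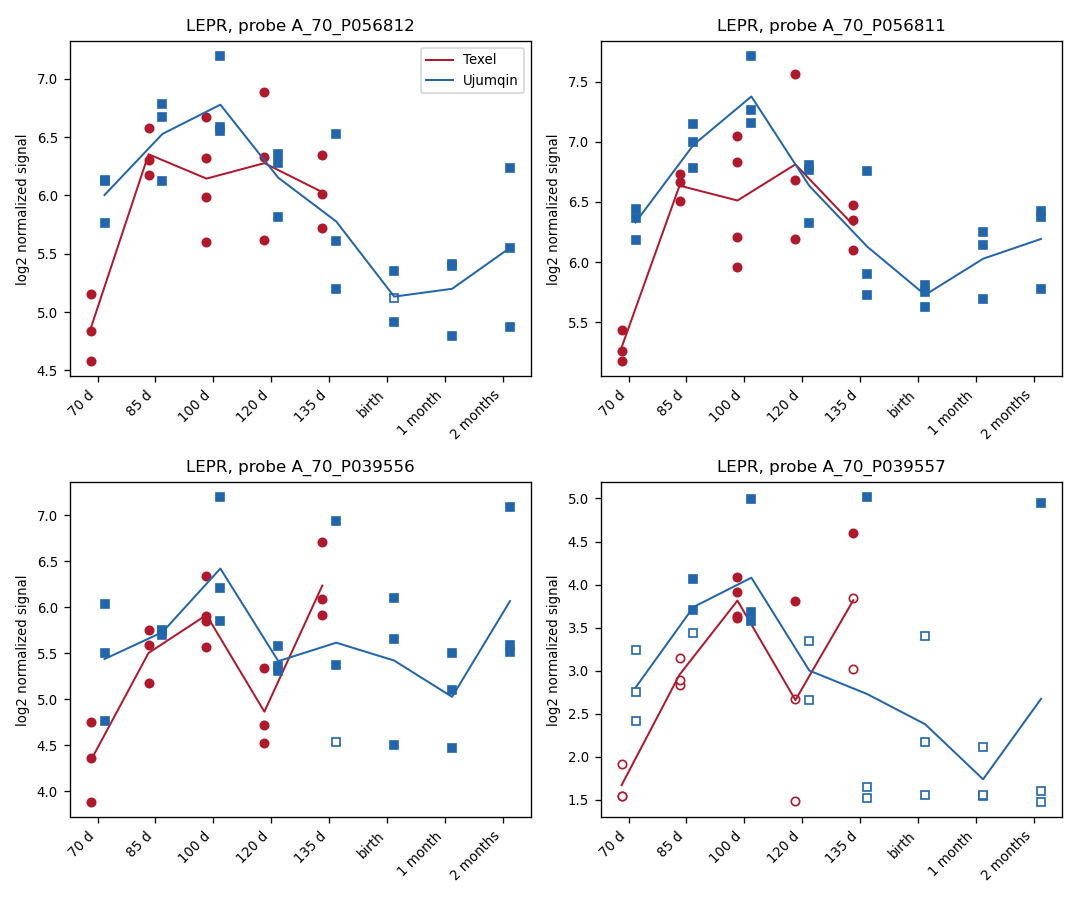
Log2 normalized signal of the 4 LEPR probes in every animal, by stage. Red circles are Texel, blue squares are Ujumqin, lines join the group means and open symbols mark spots not well above background; in each panel the 3 Texel fetuses of 70 d lie below the 3 Ujumqin fetuses, and at 135 d the breeds overlap.

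Leptin itself, LEP, was at 7.84 in Texel and 7.85 in Ujumqin at 70 d and was not called between the breeds at any stage. It fell by 1.25 between 100 and 120 d in Texel (limma adjusted p = 0.00308, and 0.0530 with a difference of -0.65 without the third fetus of 120 d), and the difference over the same step in Ujumqin was -0.41 and was not called. The difference between these steps was not tested. The Texel step was -0.75 with slide as a fixed block (limma adjusted p = 0.426). From 135 d to birth it rose by 1.45 in Ujumqin (limma adjusted p = 2.74e-04), and with slide as a fixed block that difference was 0.12 (limma adjusted p = 0.961). In the step from 100 to 120 d in Texel 14.7% of all tested probes were called.

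TSHR was near the background of the array in most samples and stood above it mainly between 100 and 135 d. Its probe, printed at 5 spots per array, was well above background on 12 of 40 arrays, all of them fetal and from 100 d on. In Ujumqin it read 2.32, 2.46 and 3.00 at 70 d and 2.57, 2.98 and 3.30 at 85 d, all not well above background. At 100 d it read 4.30, 5.38 and 4.82 and at 120 d 4.61, 4.17 and 5.52, above background in all 6 fetuses. At 135 d it read 5.48 and 4.10 above background and 3.75 not above it. In the lambs it read 3.72, 2.19 and 2.29 at birth, 1.65, 2.38 and 2.34 at 1 month and 3.71, 1.55 and 1.77 at 2 months, with none of the 9 spots well above background. The Ujumqin course therefore had its measured levels in the 3 late fetal stages alone. In Texel the probe read 1.69, 2.57 and 2.80 at 70 d and 2.49, 3.76 and 3.33 at 85 d, none above background. At 100 d it read 4.38 above background and 1.69, 1.44 and 3.14 not above it. At 120 d it read 4.85 and 4.83 above and 4.02 not above background, and at 135 d 5.40 above and 4.49 and 1.52 not above it.

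Where a group lay wholly below background, only a rough figure can be given. Its readings were raised to the lowest signal of any probe that was well above background on the same array. A spot above that signal can still fail, as TSHR did in the third Ujumqin fetus of 85 d (3.30 against 3.25). The folds below are therefore not strict lower bounds, and the groups compared lay on different slides. By this measure Ujumqin at 100 d was 3.32-fold higher than Ujumqin at 85 d and 2.13-fold higher than at 70 d. Both of these figures use the Ujumqin arrays of 100 d, which belong to the contrast that chose the gene. They are descriptions and can be too high for that reason. By the same measure Ujumqin at 120 d was 1.39-fold higher than at birth and 1.32-fold higher than at 2 months. No such figure is given for Texel at 120 d or Ujumqin at 135 d, since in each 1 of the 3 spots was itself not well above background. These folds are low because the signal itself was low, and each of the 13 groups overlapped its neighbour in the order of the means.

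At 100 d, the contrast that chose it, TSHR was 2.17 lower in Texel than in Ujumqin (4.51-fold, SE 0.71, n = 4 and 3), and the first Texel fetus, at 4.38, overlapped the Ujumqin range. That fetus was the only one of the 4 on slide 2. Of the 4 Texel arrays 3 were not well above background, so that this fold rests partly on values below the measured range. Within slide 3, between 3 Texel arrays and 1 Ujumqin array, the difference was -2.21. At 70 and 85 d none of the 12 spots was well above background, so that the differences there, -0.24 and 0.24, compare background values. At 120 and 135 d, with some spots of each stage below the measured range, the differences were -0.20 and -0.64, and neither was called (limma adjusted p = 0.882 and 0.945). The average over the 4 stages, -0.21 ± 0.37 (SE) with a 95% confidence interval from -0.96 to 0.54 (limma adjusted p = 0.821), includes the background values of 70 and 85 d and does not bound a breed difference in the TSHR level.

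Of the 7 comparisons of successive stages that do not use the 100 d arrays, none was called for TSHR, and 1 had an unadjusted p under 0.05. Only the 2 steps from 120 to 135 d, -0.77 in Texel and -0.32 in Ujumqin, had spots well above background in both groups. In 4 of the others neither group had any, and in the step from 135 d to birth in Ujumqin the lambs had none, so that the fitted difference of -1.71 (limma adjusted p = 0.0609) is not a measured size. Ujumqin fetuses of 135 d and lambs of 2 months lay on the same slide, and this comparison was added after the data had been seen. The fitted difference there was -2.10 (limma adjusted p = 0.0276), again set against 3 lambs not well above background, and so no change is stated. That p rose above 0.05 when the second lamb of 2 months, the third lamb of 2 months or the first fetus of 135 d was left out (limma adjusted p = 0.118, 0.112 and 0.153). Of all tested probes 33.4% were called in this comparison, 17.9% lower and 15.5% higher at 2 months.

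AGT was highest at 70 d in Texel, and in both breeds its mean was higher at 135 d than at 100 or 120 d. Its probe, well above background on all 40 arrays, read 7.51, 8.54 and 7.87 in Texel at 70 d and 5.98, 6.87 and 6.34 at 85 d. In the 4 fetuses of 100 d it read 6.51, 5.83, 5.12 and 6.29. At 120 d it read 6.03, 7.04 and 6.67 and at 135 d 7.59, 7.48 and 6.58. The 3 Texel fetuses of 70 d lay above all those of 85, 100 and 120 d. In Ujumqin it read 6.50, 5.48 and 6.29 at 70 d and 5.96, 7.41 and 5.65 at 85 d. In Ujumqin fetuses of 100 d it read 6.05, 5.53 and 6.14. It read 5.70, 6.32 and 6.44 at 120 d and 7.46, 6.65 and 6.53 at 135 d, and in the lambs 5.08, 5.46 and 5.51 at birth, 5.54, 5.74 and 5.85 at 1 month and 5.66, 5.34 and 6.93 at 2 months. Ujumqin fetuses of 135 d lay above all lambs of birth and 1 month and overlapped those of 2 months. No test is given for this course. From 120 to 135 d the mean was 0.64 higher in Texel and 0.73 higher in Ujumqin, and from 135 d to birth it was 1.53 lower in Ujumqin, or 2.63 lower with slide as a fixed block. Between 135 d and 2 months, on the same slide, it was 0.90 lower.

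At 70 d, the contrast that chose it, AGT was 1.88 higher in Texel than in Ujumqin (3.69-fold, SE 0.35), and the breeds did not overlap. With slide as a fixed block the difference was 1.80. At the 4 later stages the differences were 0.03 to 0.43, all higher in Texel and none called (limma adjusted p from 0.674 to 0.973). Averaged over 85 to 135 d the difference was 0.21, with a 95% confidence interval from -0.22 to 0.65 (limma adjusted p = 0.627). Hepatocyte markers also had higher values in the same Texel fetuses. Of the 4 hepatocyte markers ALB and TTR had a probe, and their summed signal was 7.55 to 8.26 in Texel and 6.32 to 6.78 in Ujumqin at 70 d. ALB, serum albumin, read 7.19 to 8.12 in Texel and 5.90 to 6.46 in Ujumqin, and TTR, a thyroid hormone carrier, 4.47 to 5.38 and 4.33 to 4.45. Over the step from 120 to 135 d, in which AGT had higher means in both breeds, the means of ALB went from 6.61 to 5.91 in Texel and from 5.67 to 4.47 in Ujumqin. Those of TTR went from 3.82 to 5.56 in Texel and from 5.70 to 4.15 in Ujumqin. Their part in the AGT level was not tested.

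**Figure D3:**
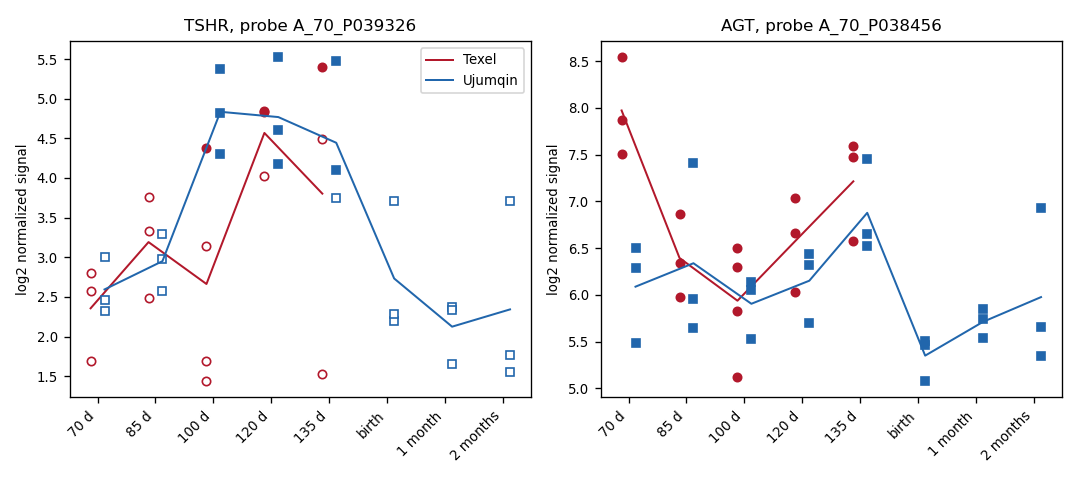
Log2 normalized signal of the TSHR and AGT probes in every animal, by stage. Red circles are Texel, blue squares are Ujumqin, lines join the group means and open symbols mark spots not well above background; all TSHR spots before 100 d and after birth are open, and the 3 Texel fetuses of 70 d have AGT levels of 7.51 to 8.54.

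Taking the 4 genes as a set, 32 breed comparisons lay outside the contrasts that chose them, and none was called, with 3 at an unadjusted p under 0.05 and adjusted p-values from 0.249 to 0.982. The arrays of a single stage called few probes of any kind: 0.117% of all tested probes at 70 d, and at the 4 later stages in turn 0.0207%, 0.0138%, 0.0345% and 0.0207%. A count of 0 in the members is therefore no result about them. In the means over stages more was called, 4.39% of all probes over 85 to 135 d and 3.85% over the 4 stages without 100 d, and none of the members. The change from 120 to 135 d, the period before term, was also compared between the breeds. None of the 8 probes differed (lowest limma adjusted p = 0.628, and none had an unadjusted p under 0.05), against 0.0138% of all probes. Each step between successive stages called its own share of all probes. In Texel it was 0.670% from 70 to 85 d, 7.51% from 85 to 100 d and 6.45% from 120 to 135 d. In Ujumqin it was 0.276%, 1.71%, 1.22% and 9.96% over the 4 fetal steps, 42.9% from 135 d to birth, 21.0% from birth to 1 month and 7.58% from 1 to 2 months.

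The partners of the 4 genes were read from lists of the leptin, thyroid, glucocorticoid and angiotensin pathways and of other hormones and receptors. Of their genes other than the members 50 had a named probe: 4 of 15 for leptin, 5 of 19 for thyroid, 9 of 24 for glucocorticoid synthesis and receptors, 4 of 28 for glucocorticoid-responsive genes, 6 of 17 for angiotensin and 23 of 50 for other hormones, with POMC in 2 of the lists. The deiodinases DIO2 and DIO3 had none. Between the breeds 1 of the 50 was called in any single stage, ESR2, an oestrogen receptor, which was higher in Texel at 70 d. From 120 to 135 d in Texel 1 of 50 rose and 1 fell, beside 4.16% and 2.29% of all probes, and in Ujumqin 4 rose and 3 fell, beside 5.44% and 4.52%. The median change of the 50 was 0.13 in Texel and -0.04 in Ujumqin, against 0.04 and -0.02 over all probes.

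THRB, the thyroid hormone receptor beta, was the gene that rose in Texel and was among those that rose in Ujumqin. It read 7.19, 8.22 and 7.83 at 120 d and 8.81, 8.28 and 8.55 at 135 d in Texel, a rise of 0.80 (limma adjusted p = 0.0393). In Ujumqin it read 6.44, 7.36 and 7.27 at 120 d and 8.08, 8.46 and 8.63 at 135 d, a rise of 1.37 (limma adjusted p = 3.94e-04). No animal of 120 d lay above an animal of 135 d in either breed. The call in Texel was lost when any of 4 of the 6 animals was left out (limma adjusted p up to 0.174). The Texel call was also lost with slide as a fixed block (0.98, limma adjusted p = 0.145), and the Ujumqin call was not (1.77, limma adjusted p = 0.0317). On slide 5 THRB was 2.56 higher in the lambs of 2 months (11.04, 10.88 and 10.93) than in the fetuses of 135 d (limma adjusted p = 4.14e-09). THRA, the receptor alpha, was 0.95 higher at 2 months (limma adjusted p = 0.0140), a call that was lost without the first fetus of 135 d (limma adjusted p = 0.0670). Its second probe gave 0.84 and was not called (limma adjusted p = 0.0535).

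AGTR2, the type 2 receptor of angiotensin and the form that predominates in many fetal tissues, fell in both breeds. Its group means went from 9.97 at 70 d to 5.68 at 135 d in Texel and from 10.18 to 6.36 in Ujumqin. Between 100 and 120 d it fell by 1.69 in Texel (limma adjusted p = 1.84e-04) and by 1.57 in Ujumqin (limma adjusted p = 0.00361), and a second AGTR2 probe fell in both steps (by 1.90 and 1.69, limma adjusted p = 0.00146 and 0.0331). Between 120 and 135 d it fell by 1.35 in Texel (limma adjusted p = 0.00734), and by 1.32 within slide 4, and by 1.12 in Ujumqin (limma adjusted p = 0.0147). The Ujumqin call was lost without the third fetus of 120 d or the second of 135 d (limma adjusted p = 0.0636 and 0.0824). From 120 to 135 d the second probe gave -0.93 and -1.24, neither of them called (limma adjusted p = 0.166 and 0.0529). With slide as a fixed block neither step from 120 to 135 d was called for the first probe (-1.34 and -1.18, limma adjusted p = 0.145 and 0.380). AGTR1, the type 1 receptor, read 14.46, 14.26 and 12.88 in Ujumqin at 135 d and 13.38, 12.999 and 12.30 at 2 months, a fall of 0.97 (limma adjusted p = 0.00636). That call was lost without the third lamb or without the first or second fetus (limma adjusted p = 0.0821, 0.0775 and 0.0502). ACE, the angiotensin-converting enzyme, was not called in any late step.

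HSD11B2, the counterpart of HSD11B1, had its highest means at 85 and 100 d and lower ones towards term. In Texel the means were 9.88, 10.63, 10.37, 9.32 and 8.71 over the 5 fetal stages, and in Ujumqin 9.62, 10.26, 10.57, 9.68 and 9.28, followed by 8.52 at birth, 9.29 at 1 month and 8.84 at 2 months. The fall of 1.05 from 100 to 120 d in Texel was called (limma adjusted p = 0.00925, and 0.0657 without the second fetus of 120 d), with -0.69 and no call with slide as a fixed block (limma adjusted p = 0.496), and the Ujumqin difference over the same step, -0.89, was not (limma adjusted p = 0.146). From 135 d to birth it fell by 0.76 (limma adjusted p = 0.0337), a call that 5 of the 6 leave-outs lost (limma adjusted p up to 0.152). NR3C1, the glucocorticoid receptor, was not called in any fetal step and was 0.84 higher at 2 months than at 135 d on slide 5 (limma adjusted p = 0.0223). That call was lost without the third lamb of 2 months, the second fetus of 135 d or the third fetus of 135 d (limma adjusted p = 0.108, 0.0702 and 0.0572). NR3C2, the mineralocorticoid receptor, fell by 0.73 from 120 to 135 d in Ujumqin (limma adjusted p = 0.0192, and 0.846 with slide as a fixed block). FBXO32, a ubiquitin ligase of muscle wasting that glucocorticoids induce, read 12.05, 12.27 and 11.05 at 135 d and 14.36, 14.91 and 16.18 at 2 months, a rise of 3.36 (limma adjusted p = 5.10e-06). It was 1 of 4 glucocorticoid-responsive genes with a probe, and the other 3 were not called from 135 d to 2 months. None of these 4 was called from 120 to 135 d in either breed.

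**Figure D4:**
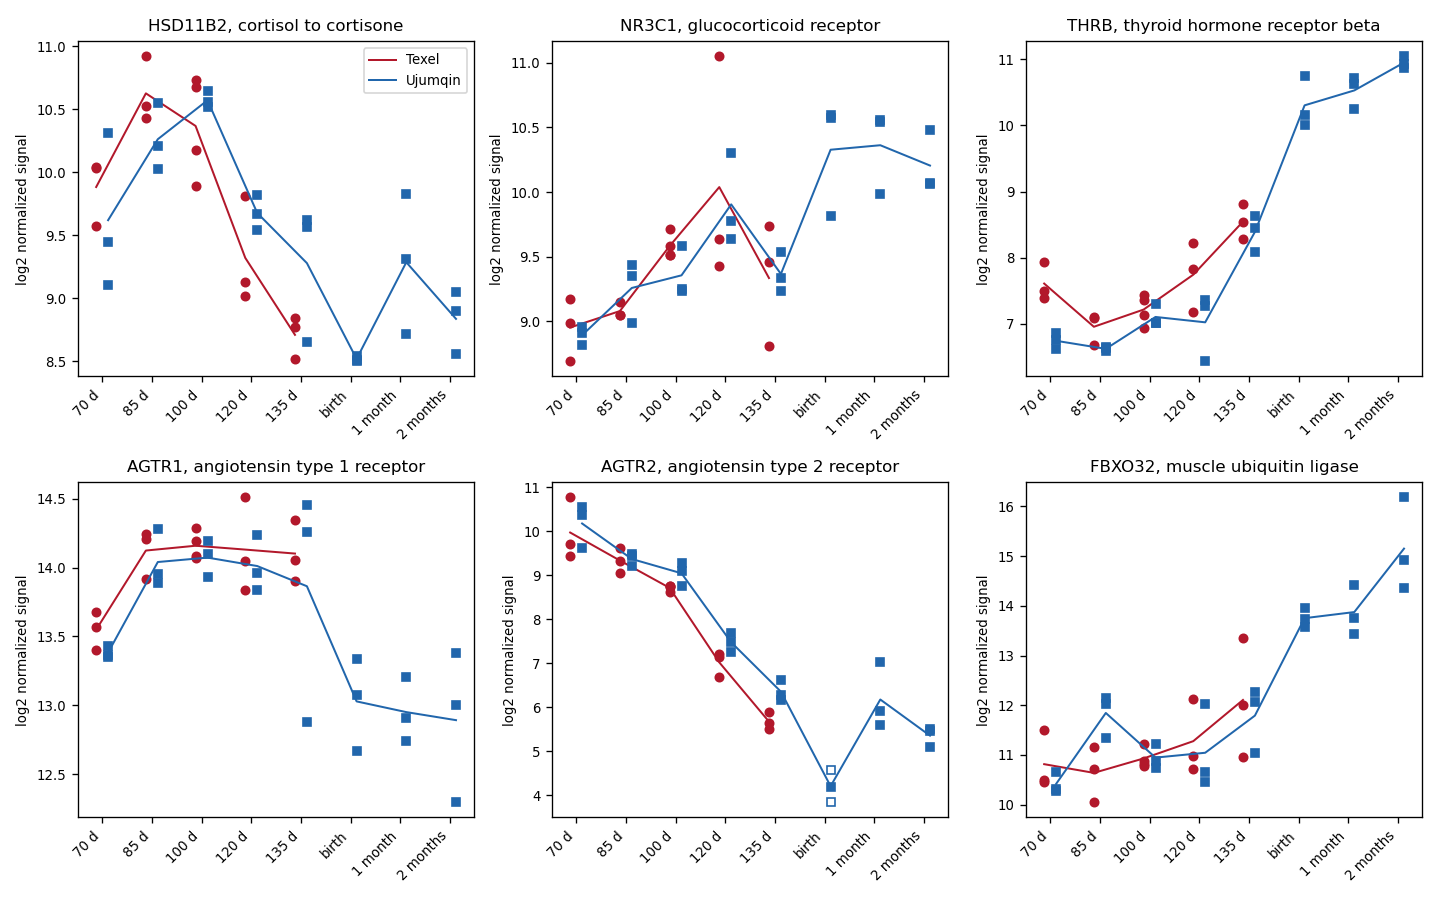
Log2 normalized signal of HSD11B2, NR3C1, THRB, AGTR1, AGTR2 and FBXO32 in every animal, by stage, 1 probe per gene. Red circles are Texel, blue squares are Ujumqin, lines join the group means and open symbols mark spots not well above background; AGTR2 means go from 9.97 at 70 d to 5.68 at 135 d in Texel, and THRB means in Ujumqin from 7.02 at 120 d to 10.95 at 2 months.

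Of the others past the threshold with a change of at least 2-fold in Ujumqin from 120 to 135 d, the prostaglandin receptor PTGFR rose by 1.37 and the oestrogen receptor ESR1 by 1.33, and the natriuretic peptide NPPC fell by 1.86 (limma adjusted p = 0.0278, 0.0473 and 0.0164). NPPC was not called without the third fetus of 120 d or the second of 135 d (limma adjusted p = 0.0890 and 0.138), PTGFR was called in 1 of the 6 and ESR1 in none (limma adjusted p up to 0.169 and 0.148). With slide as a fixed block NPPC was called and PTGFR and ESR1 were not. From 135 d to birth 17 of the 50 rose and 7 fell, beside 20.8% and 22.1% of all probes, and from birth to 1 month 5 rose and 7 fell, beside 10.2% and 10.8%. With slide as a fixed block none of the 50 was called in either step, and the newborns' slide held no other Ujumqin animals. Between 135 d and 2 months, on 1 slide, 6 rose (THRA, THRB, NR3C1, MC2R, FBXO32 and PTGER4) and 7 fell (AGTR1, AGTR2, KLK1, OXTR, GNRHR, SSTR2 and GHRL), beside 15.5% and 17.9% of all probes. MC2R was not well above background on any of these 6 arrays. KLK1, a kallikrein that releases kinins, fell by 3.44 (limma adjusted p = 6.71e-05).

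Among 841 named genes with 1 probe each, those whose 13 group means correlated best with each member were recorded as a description. All points share the 40 arrays. For HSD11B1 they were HACD1 (r = 0.964), FCER1A (0.963) and VEGFA (0.957), and for TSHR ST3GAL4 (0.885), RAB7A (0.863) and ITGAV (0.807). For LEPR they were NRF-2 (0.841), GGTA1 (0.812) and SMAD5 (0.798), and for AGT CENP-B (0.792), RPS25 (0.7504) and LOC100037696 (0.7503). The likeness was closest for HSD11B1, whose means ranged over more than 6 units.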

How the data were processed

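The authors hybridised Cy3-labelled RNA of single animals to 1-colour Agilent sheep arrays and, per the file headers, obtained the intensity of each spot with Feature Extraction, with the background subtracted. A table with the authors' own quantile-normalized log2 values for the same arrays, also deposited, was used as an alternative. From the deposited intensities, spots marked as outliers were left out, repeat spots were averaged per probe, the 40 arrays were quantile-normalized together, and log2 was taken with a floor of 1. A probe was tested if well above background on at least 1 array (14475 of 15008 probes). The third Ujumqin array of 120 d gave no value for A_70_P039557 for this reason.

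Groups were taken from the sample labels. For a breed difference, the fit held only arrays of the stage in question. Stage changes, means over stages and the difference between the breeds in the change from 120 to 135 d came from 1 fit over the 13 groups, all with limma 3.58.1 in R 4.3.3 and Benjamini-Hochberg adjustment over all tested probes. The script was tested on simulated data. Animals are the replicates, and their number limits the precision.

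The members and the gene lists were chosen with earlier results of these data known. The text names the members, the receptors and enzymes that pair with them, list genes past the threshold with a change of at least 2-fold in a late step (at most 6 per step), the list genes called between 135 d and 2 months, and the 3 genes most like each member. NR3C2, chosen after its values were seen, and ESR2 are also named. Some list genes that are part of the counts are not reported here by name. Each list gene was read by its brightest probe. Gene names are those of the scanner files (1605 probes), updated through the RefSeq table of ARS-UI_Ramb_v3.0 where an accession matched (662 probes), and THRB, AGTR2 and NR3C2 were named from the probe descriptions. The design gave a mean over 70 to 135 d for AGT. Since 70 d chose it, 85 to 135 d is reported and the former is an alternative. Alternatives covered scaling, background correction, filters, floor, variance model, slide, sex, replicate number, samples in the fit, test, threshold, probe and leaving out each array. Figures were drawn with matplotlib 3.10.9.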

Additional observations from a re-analysis of the deposited data

Results flagged for a closer look

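In the Texel fetuses of 100 d, the HSD11B1 level of probe A_70_P051221 was 11.63 in the first animal and 11.23 in each of the other 3, so that the gap to the nearest other animal made up 0.9896 of the range of the group. The second HSD11B1 probe, A_70_P051222, read 7.96, 7.59, 7.48 and 7.74 in the same 4 animals and did not set the first one apart in this way. The first animal's array lay on slide 2 and the other 3 on slide 3, and the part of the slide was not tested. The threshold used for such a gap is passed by chance in about 1 in 20 groups of 4.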

How the results depend on the processing

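The count of member breed comparisons past the threshold stayed at 0 under all settings tried, and so did that of breed differences in the change from 120 to 135 d. With slide, sex or replicate number in the fit, stages that could not be fitted dropped out of the first count. Its 0 therefore says nothing about those stages under these settings. The TSHR mean breed difference turned sign with array weights (0.0064) and ranged from -0.41 to 0.0752 over the leave-outs, where it turned without the third Texel fetus of 135 d (0.0752). The mean for AGT over 70 to 135 d was 0.55 (adjusted p = 0.0839). The TSHR change from 135 d to birth was called with the deposited table (-1.96), with a floor of 8 (-1.21) and at an unadjusted p with 2-fold (-1.71), and ranged from -2.20 to -1.19 over the leave-outs. That from 135 d to 2 months was not called with 75th percentile scaling (-1.66), array weights (-1.93) or the 2 groups alone (-2.10), and ranged from -2.78 to -1.58. With normexp these 2 differences were -0.14 and -0.19, and with slide as a fixed block the first was -4.63. The groups after birth were not well above background, so that neither is a measured size. LEPR stage calls were 6 with array weights, 1 on the 2 groups alone and 4 at the unadjusted threshold (0 to 1 over the leave-outs), and TSHR stage calls were 1 with the deposited table, with a floor of 8 and at the unadjusted threshold (0 to 1). List calls from 120 to 135 d in Texel were 0 with array weights, with slide as a fixed block and on the 2 groups alone (1 to 5 over the leave-outs), and in Ujumqin 11 with array weights and 2 with slide as a fixed block (2 to 6). With slide as a fixed block they were 0 from 135 d to birth and from birth to 1 month, and 6 on the 2 groups alone in the latter. The normexp background correction was run with an added offset, which compresses low signals. Under it the HSD11B1 difference from 70 to 135 d was 4.87 and 2.39 in Texel and 4.70 and 2.15 in Ujumqin for its 2 probes. With slide as a fixed block it was 4.19 and 6.17 in Texel, and 2.82 and 4.94 in Ujumqin. AGT from 135 d to birth was -0.43 with normexp and -2.63 with the slide block. With normexp the differences that chose the members were -0.23 (LEPR), -0.50 (HSD11B1), 0.72 (AGT) and -0.20 (TSHR), with unchanged direction. The cause of these shifts was not tested.

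Replicate numbers were shared between the breeds, but of 15 pairs of same-numbered animals the deviations from the group means correlated at -0.31 to 0.11, and 1 pair was over 0.1, so that the numbers were not taken to pair the animals. With the replicate number as a block the mean breed differences were -0.12 for LEPR, 0.14 for HSD11B1, -0.21 for TSHR and 0.18 for AGT, the TSHR change from 135 d to birth was -1.71 and that to 2 months -2.10, and no call among the results listed changed.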

Other observations

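Hormone transcripts that muscle is not known for stood out on the first Ujumqin array of birth. PRL, prolactin, read 10.81 there against 7.49 and 6.35 in the other newborns. GH read 7.07 against 2.26 and 1.56, and CGA, the alpha subunit of thyrotropin and the gonadotropins, 6.01 against 1.43 and 3.84. The rises of these genes at birth in the counts above include this array.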
